A study of Mus musculus with 12 samples.

Results

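The Ly6 surface protein family was described through the genes Ly6d, Ly6a, Ly6c1, Ly6c2 and Ly6e in the liver of mice that took in molecular hydrogen (H2). Every non-control probe whose RefSeq record belonged to 1 of these 5 genes was taken. The rule found 5 probes, 1 each for Ly6d, Ly6a and Ly6e and 2 for Ly6c1, among 39429 probes in all. No probe was assigned to Ly6c2 by its record, so 4 of the 5 genes have values here. Each of the 5 probes stood well above background in Cy3 and Cy5 on every one of the 12 arrays, as did 18474 of the 39429 probes. The members were chosen by a measured value, the strong difference in the Ly6d log2 ratio between 1 and 7 days. That contrast is therefore a description without a test for every member, as are the Ly6d values at 1 day and 7 days and its steps between the days.

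Ly6 proteins are small proteins of the cell surface, most of them held in the membrane by a glycosylphosphatidylinositol anchor, and they share a disulfide-bonded fold with the urokinase receptor. Many of their genes lie side by side in 1 cluster. Ly6a, also named Sca-1, marks stem and progenitor cells and is induced by interferons. Ly6e is also interferon-induced. Ly6d marks early lymphoid progenitors that turn to the B lineage and is made in squamous epithelia, and Ly6C proteins are markers of monocytes and of endothelium.

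Livers came from male db/db mice, which lack a working leptin receptor and become obese and diabetic, and which the labels give as 8 weeks old. MgH2, which releases H2 in the stomach, was gavaged once a day for 1, 3 or 7 days at a labelled dose of 0.9 mg/kg, and Mg(OH)2 was the study's control for it. For 14 days, other mice drank water saturated with H2 at 0.8 mM (H2-water) or, as control, degassed water. Each group had 3 arrays, and on each an RNA pool of 3 mice from the control group (Cy3) was hybridized with a pool of 3 mice from the H2 group (Cy5). Dyes were never swapped, so a dye effect of a probe cannot be told apart from H2. All groups, controls included, are db/db; no lean mice were measured. The 14-day groups differ from the others in H2 source, duration, control, slide and software version at once.

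Values are log2 ratios of H2 over control, with 0 meaning equal signals and negative values less signal with H2. Signals of a single pool are given in ppm of the mean channel total of the array and can be compared between arrays for 1 probe, not between probes. A probe was called changed when its limma p, adjusted by the method of Benjamini and Hochberg over all probes tested, was under 0.05. No spot was saturated, and 51.8% to 56.5% of spots were above background in both channels. Control signals at 1, 3 and 7 days were alike when the replicate number was the same. The SD of their log2 differences over probes was 0.137 to 0.211 for 9 such pairs of arrays and 0.22 to 0.316 for 27 pairs of different number. In the H2 channel the ranges were 0.241 to 0.347 and 0.188 to 0.36. The labels name a control for each day, and whether the same control pools were used again is not stated. The 3 MgH2 comparisons are therefore read here as possibly sharing their controls. The main fit had no term for this, and the replicate number entered only as a block in an alternative setting. All 12 hepatocyte genes checked, such as Alb, were above background on every array.

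Ly6d was lower with MgH2 at 3 days, was lowest at 7 days, and was near its control with H2-water at 14 days. At 1 day the 3 log2 ratios were -0.33, -0.13 and 0.30, with a mean of -0.05 ± 0.32 (SD, n = 3). At 3 days they were -0.64, -0.50 and -0.55, with a mean of -0.56 ± 0.07 (SD, n = 3), that is 1.47-fold lower. All 3 arrays lay below 0 and close together. At 7 days the ratios were -1.42, -1.22 and -1.70, with a mean of -1.45 ± 0.24 (SD, n = 3), that is 2.73-fold lower. At 14 days of H2-water they were -0.008, -0.063 and 0.024, with a mean of -0.02 ± 0.04 (SD, n = 3). These arrays lay on both sides of 0.

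**Figure D1:**
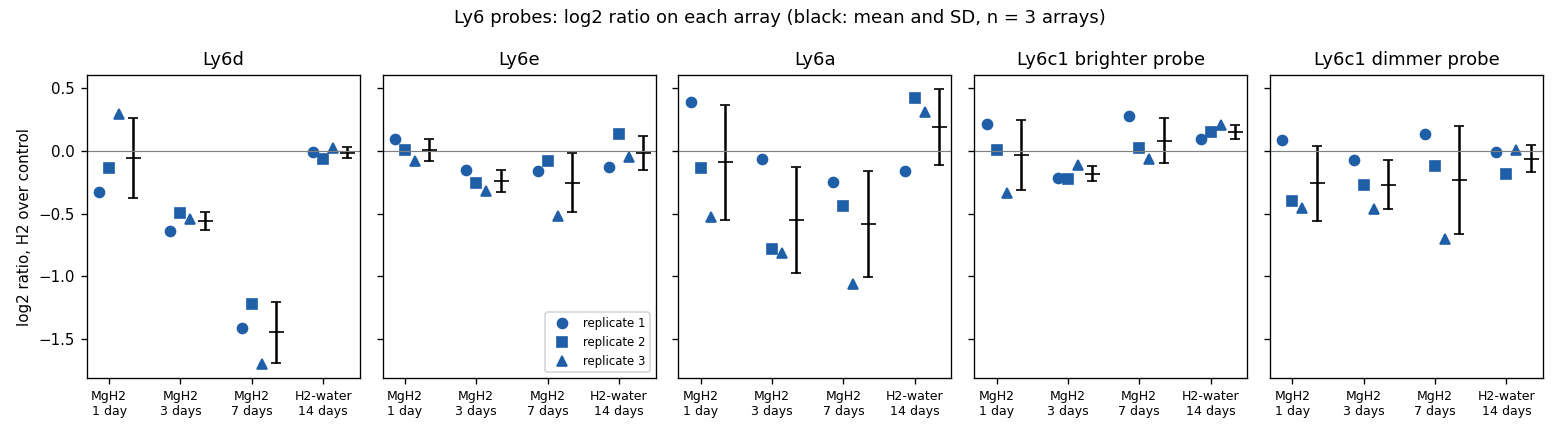
Log2 ratio of H2 over control (vertical axis) for the 5 Ly6 probes in each group (horizontal axis); symbols are the 3 arrays of a group, and the black bar is the mean with its SD. For Ly6d the 3-day arrays lie between -0.64 and -0.50 and the 7-day arrays between -1.70 and -1.22, while the 14-day arrays lie around 0.

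At 3 days limma called Ly6d lower (log2 ratio -0.56, SE 0.11, adjusted p = 0.0063). The rule did not use the 3-day arrays, but the test is not independent of it, since the control pools may be shared and the spread was estimated from all 12 arrays. In the fit to the 3-day arrays alone the adjusted p was 0.039. It was the 1 Ly6 probe of 5 called at 3 days, where 23.4% of all probes were called and 11.1% were called lower. Its log2 ratio ranked 247 from the lowest among 19430 probes. The adjusted p ranged from 0.0026 to 0.039 over the 9 other limma settings, and from 0.032 to 0.036 when 1 of the 3-day arrays was left out. The methods' t-test lost the call after adjustment (adjusted p = 0.16). At 14 days Ly6d was not called (log2 ratio -0.02, SE 0.11, adjusted p = 0.95), and neither was any other Ly6 probe, against 8.86% of all probes. Without adjustment 0 of the 5 had a p under 0.05 in limma or in the methods' t-test, against 24.4% of all probes in limma. The difference between 3 days of MgH2 and 14 days of H2-water, a contrast added after seeing the data, did not pass the threshold (log2 difference -0.54, SE 0.15, adjusted p = 0.085). None of the 5 Ly6 probes passed in that contrast, where 2.43% of all probes did; without adjustment 3 of the 5 had a p under 0.05, against 20.5% of all probes.

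The pool signals give each channel of the Ly6d ratio. The control pools gave 111, 121 and 119 ppm at 1 day, 103, 119 and 122 ppm at 3 days, and 106, 116 and 124 ppm at 7 days. The H2 pools gave 88.5, 110 and 146 ppm at 1 day. They gave 66.4, 84.0 and 83.4 ppm at 3 days and 39.5, 49.8 and 37.9 ppm at 7 days. Thus the control level stayed within 1.04-fold to 1.07-fold for a replicate number across the days, while the H2 level spanned 2.21-fold to 3.86-fold. If the same control pools were used on each day, their steady level would follow from that reuse. The spans of the channels would then not be comparable. In order of the H2 level, 1 day was highest, 3 days lay below it and 7 days lowest, with no overlap between the days. The share of all probes with such an order in the H2 channel was not counted. At 14 days the signals were 58.3, 75.8 and 73.1 ppm in the controls and 58.0, 72.6 and 74.3 ppm with H2-water. All 3 of these controls lay below every control of the MgH2 days. With slide, software version and control all different, that gap has no single source that can be told apart.

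**Figure D2:**
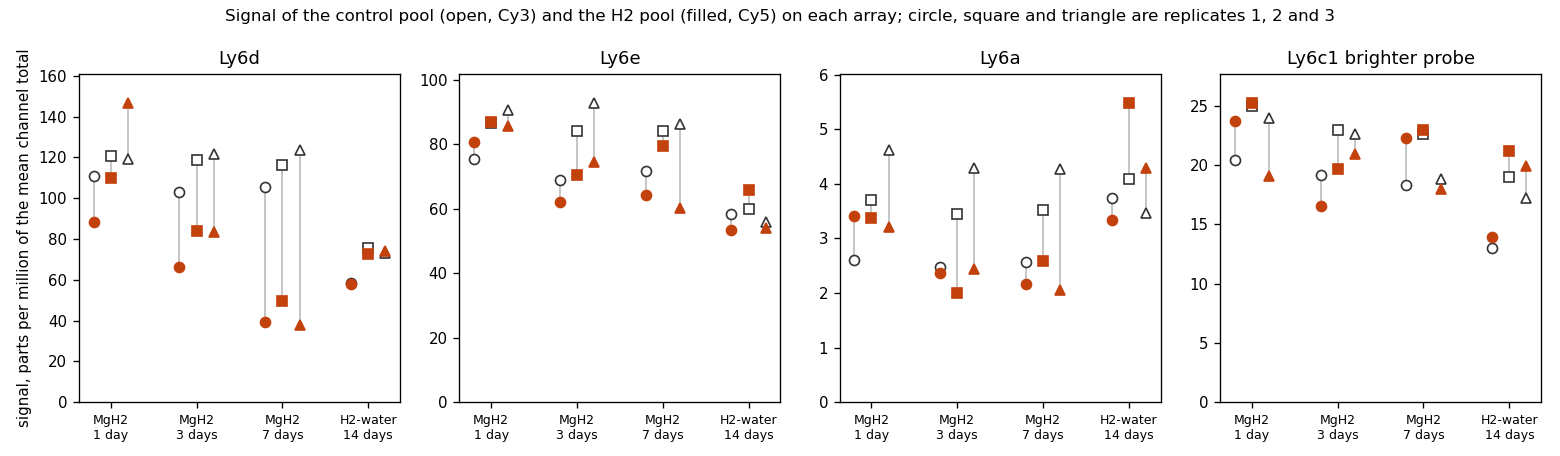
Signal in ppm of the mean channel total (vertical axes, from 0) of each control pool (open, Cy3) and H2 pool (filled, Cy5) for 4 probes by group; a grey line joins the 2 pools of 1 array, and symbols are replicate numbers. Ly6d control pools keep to 103 to 124 ppm over the MgH2 days while the H2 pools go down to 37.9 to 49.8 ppm at 7 days; for Ly6a the control pools differ by replicate number.

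As a description, the Ly6d log2 ratio differed by -0.51 from 1 to 3 days, by -0.89 from 3 to 7 days and by -1.39 from 1 to 7 days. The array ratios did not overlap at any of these 3 steps. Among all probes, 8.87%, 3.96% and 13.2% were lower without overlap at the same steps. The 1-to-7-day value stood 11 from the lowest of 19176 probes, which is how the gene came to be chosen. It lay between -1.53 and -1.22 when 1 array was left out. Arrays of 1 and 7 days shared no slide. On the slide that held 3 arrays of 1 day and 1 of 3 days the Ly6d difference was -0.58, and on the slide with 2 arrays each of 3 and 7 days it was -0.80.

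Ly6e, whose protein is a receptor for the placental protein syncytin-A and bears on the entry of several viruses, was slightly lower at 3 and 7 days. Its log2 ratios were 0.09, 0.01 and -0.08 at 1 day, a mean of 0.01 ± 0.09 (SD, n = 3). They were -0.15, -0.26 and -0.32 at 3 days, a mean of -0.24 ± 0.08 (SD, n = 3). At 7 days they were -0.16, -0.08 and -0.52, a mean of -0.25 ± 0.24 (SD, n = 3). Every array of 3 and 7 days was below 0, but at 7 days the third array stood well apart from the other two. With H2-water the ratios were -0.13, 0.14 and -0.05, a mean of -0.01 ± 0.14 (SD, n = 3). Ly6e was called lower at 7 days (SE 0.08, adjusted p = 0.040). It was the 1 called of the 4 probes tested there, Ly6d left out, where 29.5% of all probes were called and 14.2% were called lower. That share is near the background, and the call was lost without the third array (log2 ratio -0.12, adjusted p = 0.28), without the first (-0.30, adjusted p = 0.071) and in the fit to the 7-day arrays alone (adjusted p = 0.17). At 3 days the same size of ratio missed the threshold (adjusted p = 0.056) and passed it with the replicate number as a block (adjusted p = 0.028).

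In signal, the Ly6e control pools held 68.8 to 92.6 ppm over the MgH2 days. The H2 pools held 80.6 to 86.9 ppm at 1 day, 62.0 to 74.4 ppm at 3 days and 60.1 to 79.6 ppm at 7 days. The 3-day and 7-day H2 levels overlapped each other, and both lay below those of 1 day. The share of all probes with such H2 levels was not counted. Taken array by array within a replicate number, the 3-day ratio was lower than the 1-day ratio by -0.26 to -0.23, a mean difference of -0.25 ± 0.02 (SD, n = 3). The test of that difference did not pass, either without a block (adjusted p = 0.34) or with it (adjusted p = 0.18).

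Ly6a had low means at 3 and 7 days with wide spread between arrays, and on the MgH2 days its control pools spread more widely than its H2 pools. At 1 day its log2 ratios were 0.39, -0.14 and -0.53, a mean of -0.09 ± 0.46 (SD, n = 3). They were -0.06, -0.78 and -0.81 at 3 days, a mean of -0.55 ± 0.42 (SD, n = 3). At 7 days they were -0.25, -0.44 and -1.06, a mean of -0.58 ± 0.42 (SD, n = 3). All 6 arrays of 3 and 7 days were below 0, yet their range overlapped that of 1 day. With H2-water the ratios were -0.16, 0.42 and 0.31, a mean of 0.19 ± 0.31 (SD, n = 3). Ly6a missed the threshold at 3 days (SE 0.21, adjusted p = 0.086), 7 days (SE 0.21, adjusted p = 0.062) and 14 days (adjusted p = 0.65). At 7 days it passed with the replicate number as a block (adjusted p = 0.040) and with slide as a random block (adjusted p = 0.042).

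The Ly6a control pools held 2.61, 3.71 and 4.63 ppm at 1 day, 2.47, 3.44 and 4.29 ppm at 3 days and 2.57, 3.51 and 4.28 ppm at 7 days. The first control was lowest and the third highest on each of the 3 days. In the H2 pools the signal was 3.41, 3.37 and 3.21 ppm at 1 day, 2.37, 2.01 and 2.44 ppm at 3 days and 2.16, 2.59 and 2.05 ppm at 7 days. The H2 pools of 3 and 7 days all lay below those of 1 day, and did not separate from each other. How many of all probes separate in this way in the H2 channel was not counted. At 14 days the H2-water pools held 3.35, 5.47 and 4.30 ppm and their controls 3.73, 4.10 and 3.46 ppm.

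Ly6c1 encodes 1 of 2 nearly identical Ly6C proteins, so signal from Ly6c2 on its probes cannot be told apart and both probes are uncertain. The brighter probe gave 0.22, 0.01 and -0.33 at 1 day, -0.22, -0.22 and -0.11 at 3 days, and 0.28, 0.02 and -0.06 at 7 days. Its 14-day ratios were 0.10, 0.15 and 0.21, all above 0 (mean 0.15 ± 0.05, SD, n = 3; SE 0.09, adjusted p = 0.36). The dimmer probe had means of -0.26, -0.27, -0.23 and -0.06 in the order of the days. At 7 days its arrays ran from -0.70 to 0.14. The probes differed in sign at 7 and 14 days, and neither was called in any group (adjusted p from 0.18 to 0.85).

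At 1 day limma called none of the 4 probes tested, against 9.36% of all probes. At an unadjusted p under 0.05 the count was also 0, against 26.1% of all probes, as it was with the methods' t-test. None of those 4 was called for 3 days against 1 day, where 0.0208% of all probes were, and none had an unadjusted p under 0.05, against 15.4%. For 7 days against 3 days the share of all probes called was 0%. There, too, none of the 4 passed without adjustment, against 4.73% of all probes. From 1 to 7 days, a description only, Ly6e differed by -0.26, Ly6a by -0.49, the brighter Ly6c1 probe by 0.12 and the dimmer by 0.03. With slide as a fixed term these became 0.011 for Ly6e, 0.48 for Ly6a, 0.14 for the brighter and 0.56 for the dimmer probe. Replicate numbers were not evenly spread over the slides, so slide and replicate number cannot be told apart in that fit. Within a replicate number the differences were -0.44 to -0.09 for Ly6e and -0.64 to -0.30 for Ly6a. They were 0.01 to 0.27 for the brighter and -0.25 to 0.28 for the dimmer Ly6c1 probe. On the slide that held 2 arrays each of 3 and 7 days, the 7-day ratio was higher by 0.17 for Ly6e and by 0.45 for Ly6a. On the slide with 3 arrays of 1 day and 1 of 3 days, the 3-day ratio differed by -0.16 for Ly6e and 0.03 for Ly6a. Over all 12 arrays the log2 ratios of Ly6e and Ly6a had a Pearson r of 0.88, those of Ly6d and Ly6e 0.61, and those of Ly6d and Ly6a 0.50. For Ly6d and the Ly6c1 probes r was -0.12 and 0.12. These values describe 12 arrays that share days and slides and may share control pools.

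Of 40 other genes of the Ly6/uPAR family, 36 had a probe and 11 were above background on all 12 arrays. Lypd6, which binds Wnt receptors, rose at 1 day (log2 ratios 0.20, 0.78 and 0.67; mean 0.55, SE 0.13, adjusted p = 0.030). It also rose at 3 days (0.65, 0.10 and 0.61; mean 0.45, adjusted p = 0.032), and its 7-day mean was 0.06. A second Lypd6 probe was above background on no array. Lynx1, which modulates nicotinic receptors, was called lower at 7 days (-0.57, -0.22 and -0.26; mean -0.35, adjusted p = 0.037). Cd59a, an inhibitor of the complement attack complex, was called lower at 7 days too (-0.18, -0.31 and -0.30; mean -0.26, adjusted p = 0.014). In counts, 1 of 12 tested genes was called at 1 day, 1 of 11 at 3 days, 2 of 13 at 7 days and 0 of 15 at 14 days. Over all probes the shares called were 9.36%, 23.4%, 29.5% and 8.86%, so the family did not stand above them. The calls were not stable: that at 1 day was lost without the second or the third array, that at 3 days without the first or the third, and Lynx1 and Cd59a were not both called whichever 7-day array was left out. In fits to 1 group alone 0, 0 and 1 were called at 1, 3 and 7 days. The family medians were 0.03, 0.04, 0.05 and 0.01, beside medians of all probes within 0.006 of 0. Gpihbp1, which carries lipoprotein lipase in capillaries, was not called at any time, with means from -0.11 to 0.03, and Ly6g6c, Ly6k, Lypd2, Lypd5, Slurp2, Cd59b and Spaca4 were not called either.

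**Figure D3:**
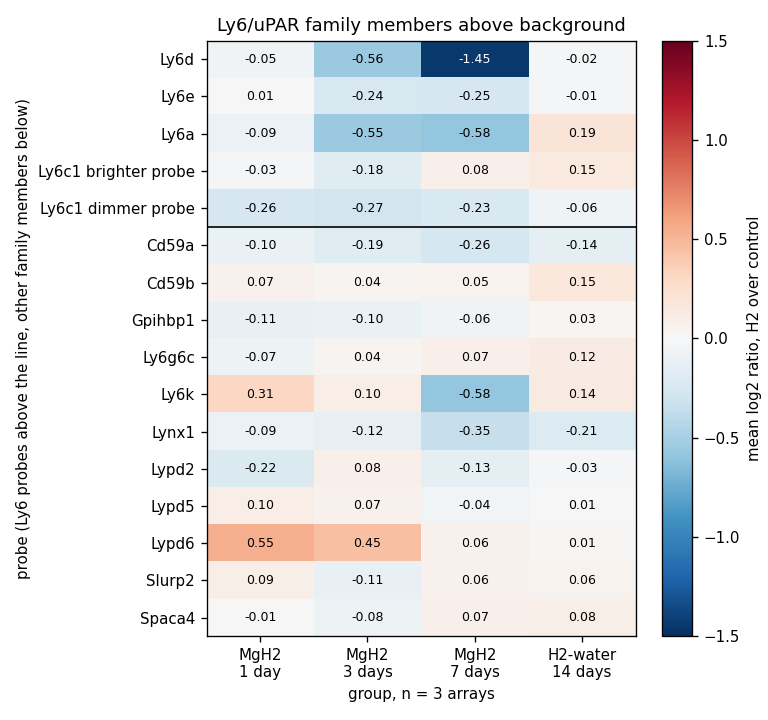
Mean log2 ratio of H2 over control (colour and printed value, n = 3 arrays) by group for the 5 Ly6 probes, above the line, and the 11 other family genes above background on all arrays. Ly6d at 7 days has the lowest value, -1.45, and Lypd6 at 1 day the highest, 0.55.

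In the gene order of the GRCm38.p6 assembly, Ly6d, Ly6e, Ly6a, Ly6c1 and Ly6c2 follow each other in 1 cluster with 11 coding genes between Ly6d and Ly6c2 in all. From 5 genes before Ly6d to 5 after Ly6c2 there are 23 coding genes, of which 17 had a probe and 8 exceeded background on every array. Beside Ly6d, Lynx1 had the 7-day ratio given above. Slurp2, the gene before it, had a 7-day mean of 0.06 ± 0.06 (SD, n = 3), and Ly6k, on the other side of Ly6d, had -0.58 ± 0.20 (SD, n = 3; adjusted p = 0.26). The Ly6k ratios spread by an SD of 1.17 at 1 day.

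By Pearson r with Ly6d over the 12 arrays, among 14594 named probes, the most alike were Atxn7l3b (r 0.95), Sytl4 (0.94), Lpgat1 (0.93), Bcr (0.93) and Castor2 (0.92). At 3 and 7 days their mean log2 ratios were nearer to 0 than those of Ly6d. At 3 days they lay between -0.32 for Lpgat1, an acyltransferase of membrane lipids, and -0.13 for Atxn7l3b. At 7 days they lay between -0.53 for Lpgat1 and -0.27 for Atxn7l3b. They were picked for this likeness, and the arrays may share control pools.

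Ly6a and Ly6e belong among genes that interferons induce, and other genes of that kind were lower at the same times. In the main setting Ly6a was called at neither 3 nor 7 days and Ly6e only at 7 days. Neither Ly6c1 probe was called, and the brighter had a mean of 0.08 at 7 days. Of 32 listed interferon-induced genes, 27 were tested at 1 day and none was called, with a median log2 ratio of -0.11. At 3 days 18 of 27 fell, against 11.1% of all probes called lower, and none rose (median -0.54). Ifi44 (-0.99), the chemokine gene Cxcl9 (-0.98) and Ifit1 (-0.96) led. At 7 days 23 of 25 fell, against 14.2% of all probes called lower, and none rose (median -0.61). Ifit1 (-1.19), Oas1a, a sensor of double-stranded RNA (-1.08), and Rtp4 (-1.03) led. At 14 days none of 26 was called (median -0.06). Tested between days, 0 of 27 were called for 3 days against 1 day and 0 of 25 for 7 days against 3 days. For 3 days of MgH2 against 14 days of H2-water, 0 of 26 were called. The shares of all probes called in these contrasts were 0.0208%, 0% and 2.43%. As a description, the list median from 1 to 7 days was -0.50, and -0.17 with slide as a fixed term. Summed over the list, the H2 pools held 275 to 308 ppm at 1 day, 219 to 240 ppm at 3 days and 188 to 240 ppm at 7 days, and the controls of these days 277 to 341 ppm. At 7 days the median of the list was lowest on the third array, as the ratios of Ly6a and Ly6e were. Every gene tested had a mean below 0 at both days. At 3 days the count fell to 5 without the second array, to 9 without the third and to 8 in a fit to that group alone. At 7 days it fell to 12 without the third array and to 11 in a fit to that group alone. The methods' t-test after adjustment called 1 at 3 days and 0 at 7 days. The part of these genes in the Ly6 ratios was not tested.

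Markers of cells that make Ly6 proteins were measured beside them. In bulk liver, fewer cells of a type and less RNA per cell cannot be told apart. Of 16 genes of monocytes and macrophages, 14 were tested. Of these, 6 fell at 3 days (median -0.25) and 7 at 7 days (median -0.30), against 11.1% and 14.2% of all probes called lower. The complement genes C1qa (-0.49) and C1qb (-0.46) and the Kupffer cell gene Cd5l (-0.47) led at 3 days. C1qa (-0.48), Vsig4 (-0.47) and Cd5l (-0.47) led at 7 days. Their summed level was 699 to 797 ppm in the controls of 3 and 7 days and 686 to 741 ppm in the H2 pools. At 1 day only C1qb of the list was called (-0.25), a call lost without the second or the third array, and none was at 14 days. At 3 days 4 genes were called without the second or the third array and 3 in the fit to that group alone. The methods' t-test after adjustment called 0 at 3 and at 7 days.

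Over all probes 11.1% were called lower at 3 days and 14.2% at 7 days. Of 10 neutrophil genes, 5 were above background, and Retnlg, Ngp, Ltf, Mpo and Cxcr2 were not. S100a9 (-1.13) and S100a8 (-0.68) fell at 3 days, and S100a9 (-1.36), S100a8 (-0.97) and the antimicrobial peptide gene Camp (-0.64) at 7 days. Of the 3-day calls 1 was left without the second array and in the fit to that group alone, and the methods' t-test after adjustment called 0 at both days. Their list sum was 124 to 162 ppm in the controls of 3 and 7 days and 131 to 147 ppm in the H2 pools. Of 13 B lineage genes, 6 were tested at 1, 3 and 7 days. Those not above background on each array of those days included Cd79a, Ms4a1, Pax5, Fcrla, Mzb1 and Jchain. Cd79b, part of the B cell receptor, fell at 3 days (-0.52) and 7 days (-0.48), while the list median was -0.07 and -0.21. This call of 1 in 6 tested genes was near the share of all probes. The 3-day call was lost on leaving out any 1 of the 3-day arrays, with normexp and loess, without the filter on dim probes and in the fit to those arrays alone. The 7-day call was lost without the first or the second array, with normexp and loess and without the filter, and the methods' t-test after adjustment made neither call. The list summed to 3.84 to 4.06 ppm in the controls of 3 and 7 days and 3.32 to 3.83 ppm with MgH2. The part of any of these cell types in the Ly6d, Ly6e or Ly6a ratios was not tested.

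**Figure D4:**
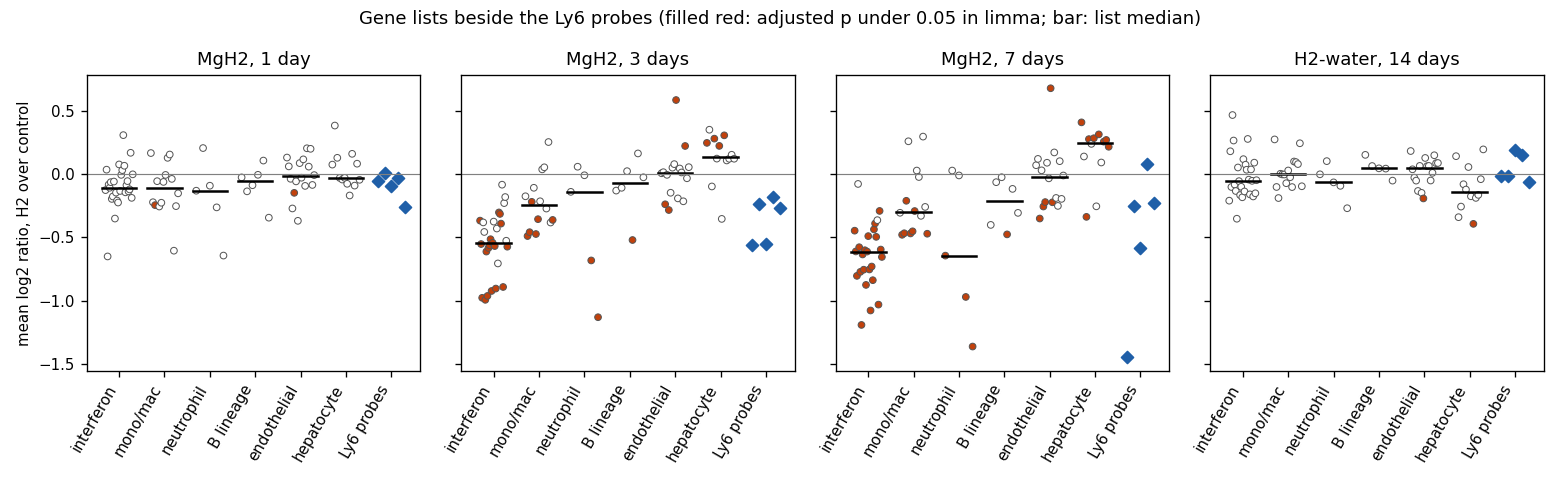
Mean log2 ratio of H2 over control (vertical axis) of each tested gene in 6 gene lists and of the 5 Ly6 probes (blue diamonds, Ly6d first), by group; red points have a limma adjusted p under 0.05 and bars are list medians. Interferon-induced genes have medians of -0.54 and -0.61 at 3 and 7 days of MgH2 and -0.06 at 14 days of H2-water, and Ly6d at 7 days lies below all of them.

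Endothelial genes were called at about the share of all probes, 23.4% at 3 days and 29.5% at 7 days. At 3 days 2 of 16 rose and 2 fell (median 0.01), with Lyve1 at 0.58, Eng at -0.28 and Clec4g at -0.24. At 7 days 1 rose and 4 fell (median -0.02), with Lyve1 at 0.68, Clec4g at -0.35 and Eng at -0.26. In fits to 1 group alone 0 fell at either day, and 1 fell at 7 days without the first array. Among all probes, 23.4% were called at 3 days and 29.5% at 7 days in either direction, and 11.1% and 14.2% were called lower. Of 12 hepatocyte genes, 4 rose at 3 days. At 7 days 7 of them rose and 1 fell (median 0.25), led by Alb (0.41), Apob (-0.34) and Pck1 (0.31). In fits to 1 group alone 0 rose at 3 days and 3 at 7 days, and 4 rose at 7 days when any 1 array was left out; at 3 days 2 rose without the second array. Of squamous epithelium genes, 5 of 11 were tested and Krt5, Krt14, Krt4, Krt6a, Dsg3 and Sprr1b were not above background at 1, 3 and 7 days. In this list Perp alone was called, at 3 days (-0.19), where 11.1% of all probes were called lower. Single genes were called in the remaining lists: Tcf4 of plasmacytoid dendritic cells at 7 days (-0.34), Spp1 of bile duct at 3 days (-0.32) and Ctrb1 of pancreas acinar cells at 3 days (-0.11). Of 13 genes of T and NK cells, 4 were tested. Cd4 (0.28) and Cd3e (0.11) rose at 3 days and Cd4 (0.20) at 7 days. These lists had few tested genes, and their calls stand beside the shares of all probes given above. At 14 days 1 of 4 tested T and NK genes, 1 of 12 hepatocyte genes and 1 of 16 endothelial genes were called lower. In that group 8.86% of all probes were called. At 1 day 1 of 16 endothelial genes was called lower, where 9.36% of all probes were called.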

How the data were processed

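Liver RNA of db/db mice was hybridized to 12 two-colour Agilent arrays (3 per group; the methods pooled 9 mice per group into 3 pools). The deposited intensity values are processed Cy3 and Cy5 signals that the authors obtained with Agilent Feature Extraction, background-subtracted and dye-normalized (version 10.10.1.1 for 1, 3 and 7 days and 10.7.3.1 for 14 days per the file headers, 10.10.1 per the labels). The methods name another array design than the 44397 features of the files. The deposited value table holds log2 ratios equal to the scanner log ratios within 1.39e-06, and served as an alternative.

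Here log2 of the Cy5 over the Cy3 processed signal was taken per spot, spots marked as outliers were left out, and the 43020 non-control spots were averaged to 39429 probes. Dividing an array by its total, as in the methods, leaves this ratio unchanged. Of the probes, 26412 (67.0%) were named through their RefSeq record and a gene table of assembly GRCm38.p6, giving 20017 symbols; array headers name mm9, so no coordinates are given. Groups were tested with limma 3.58.1 (R 4.3.3) in a fit to all 12 arrays with a mean per group, two-sided against 0 or between groups. A probe was tested where every array of the comparison had it above background in Cy3 and Cy5 (18729 to 20482 probes). The number of arrays limits the precision.

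The members and gene lists were chosen with earlier results of these data known. Every Ly6 probe and every other family gene above background on all arrays was named, with the 5 genes most correlated with Ly6d and at most the 3 called genes of largest ratio per list; a gene was read by its probe of highest mean signal. Replicate numbers paired the samples at 1, 3 and 7 days: deviations from group means correlated at 0.37 to 0.65 for 9 same-numbered pairs of arrays and -0.43 to 0.05 for the others. The main fit did not use this pairing, which entered only through the replicate block. The model was tested on simulated data in which 200 of 18414 probes were changed 1.5-fold. It recovered 77% of them at 3 days and 63.5% for 7 days against 3 days. Of the probes called, 6.67% and 3.79% were false. Errors were drawn independently for each array, so the simulation did not cover this pairing or shared controls. Alternatives were channel totals, median centring, normexp with an offset of 50 and loess, the value table, no filter, outlier spots kept, arrays of 1 comparison alone, replicate block, slide, each array left out, and the methods' t-test. A change of sign of a value not called in either setting was not counted as a change. p-values measure the spread between pools.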

Additional observations from a re-analysis of the deposited data

How the results depend on the processing

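The number of Ly6 probes called at 3 days was 1. It was 2 with channels divided by their totals, with normexp and loess, and with the replicate block, Ly6e being added each time, and 0 by the methods' t-test after adjustment. At 7 days, Ly6d left out, the number was 1. It was 0 without the filter on dim probes, with the 7-day arrays alone and by the methods' t-test with and without adjustment. It was 2 with the replicate block and with slide as a random block, Ly6a being added. Leaving out single arrays gave 0 to 1. The replicate block changed no other call of a Ly6 probe. In the gene lists it raised the genes called lower at 3 days from 18 to 22 (interferon-induced) and 6 to 8 (monocytes and macrophages). At 7 days it raised them from 1 to 2 (B lineage) and 4 to 6 (endothelial). They rose from 1 to 3 at 1 day (monocytes and macrophages) and from 1 to 4 at 14 days (hepatocytes). Other list counts moved with the block too and are not all given here. With Ly6d left out, no Ly6 probe was called at 1 day, or for 3 days against 1 day, under any alternative. The same held for 7 days against 3 days. With Ly6d counted, none was called under any alternative at 14 days, or for 3 days of MgH2 against 14 days of H2-water. The Ly6d steps between the MgH2 days, and all differences from 1 to 7 days, were not tested. With slide as a fixed term the untested 7-minus-1-day differences moved to 0.011 for Ly6e, 0.48 for Ly6a and 0.56 for the dimmer Ly6c1 probe. Ly6d stayed at -1.38. No slide held both days, replicate numbers were not evenly spread over the slides, and the cause was not tested. Within a replicate number the differences were -0.44 to -0.09 for Ly6e and -0.64 to -0.30 for Ly6a. Ly6d at 3 days kept its direction throughout. With 3 pools per group, the SE of a Ly6 group mean was 0.08 to 0.21 on the log2 scale, and dim probes such as Ly6a and the dimmer Ly6c1 probe had the wider errors.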
